A study of Mus musculus with 39 samples.

Results

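Cdkn1a, the 3 Gadd45 genes and 6 further genes known as targets of the transcription factor p53 were followed in mouse calf muscle while a tumour grew. The 10 genes are Cdkn1a, Gadd45a, Gadd45b, Gadd45g, Mdm2, Ccng1, Trp53inp1, Eda2r, Phlda3 and Zmat3, taken by symbol from the 46078 genes of the count files. They were taken by name and by no cut-off on a measured value, but with earlier results of these data known. All 10 had enough reads to be tested. p53 is activated by damage to DNA and by other stresses and switches on genes that stop the cell cycle, aid repair, start cell death or feed back on p53 itself. Cdkn1a encodes p21, an inhibitor of cyclin-dependent kinases. The Gadd45 proteins are small stress sensors that bind kinases of the stress-activated pathways and are also induced without p53. In skeletal muscle, p21 is linked to the exit of myoblasts from the cell cycle, and Gadd45a and Cdkn1a are known as genes induced in denervated and fasted muscle.

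RNA of the gastrocnemius, the large superficial muscle of the calf, was sequenced from C57BL/6 mice. At 8 weeks of age the mice received Lewis lung carcinoma cells (LLC, a line from a mouse lung tumour, used to model muscle wasting in cancer) or, as controls, buffered saline (PBS), injected in the hind flank. The groups were PBS (8 libraries, 0 days of tumour) and 7, 14, 21 and 28 days of tumour, called weeks 1 (8 libraries), 2 (7), 3 (7) and 4 (8). No group carried an engineered allele or received any other agent, as far as the labels say. No source used here states how old the PBS mice were when the muscle was taken, so tumour time and age cannot be told apart. The labels number the samples separately and do not say that each is a separate animal, so each p-value reflects the spread among these samples, which may be technical. Replicate 2 of week 3 is not analysed here.

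Reads in genes numbered 13356756 to 24801565 per library. Week 4 was sequenced in lanes 2 (5 libraries) and 4 (3), and PBS in lanes 5 (5) and 6 (3), so lane and group cannot be told apart when these groups are compared directly. Weeks 1 to 3 were spread over all 4 lanes, and late against early tumour was therefore also compared within lanes 2 and 4. The tissue label fitted its markers: the summed level of 8 skeletal muscle genes was 60454 to 182620 CPM (read counts scaled to library size) across the libraries. A few libraries stood apart. PBS replicate 1 had 1171 CPM of 12 macrophage markers against 97.4 to 231 in the other 7 PBS libraries, and 46.5 CPM of 6 proliferation markers against 1.17 to 3.36. Week 3 replicate 1 had 60454 CPM of the muscle markers against 97137 to 162290 in the other 6 of its group. Week 4 replicate 5 had 94664 CPM of them against 106710 to 148760 in the other 7.

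The proximal promoters of the members were read first, since p53 acts through a repeated 10-base element, here called the p53 decamer and searched by its consensus on both strands. In all, 9 RefSeq windows of 300 bases, 250 before to 50 after a start (build GRCm38.p6), were found for 8 of the 10 members. Trp53inp1 and Zmat3 had none, and starts outside these windows were not searched. The p53 decamer was present in the windows of 4 members, which are shown for comparison between members. Matches are in capitals, with 20 bases on either side. Of these 4, Gadd45a was called higher at week 4 against PBS, and Cdkn1a, Mdm2 and Ccng1 were not called. Against week 1, Cdkn1a and Gadd45a were called higher, Ccng1 lower and Mdm2 not.
Cdkn1a (chr17:29090886-29090957, plus strand): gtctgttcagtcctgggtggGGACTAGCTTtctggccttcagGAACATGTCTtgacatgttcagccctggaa
Gadd45a (chr6:67037418-67037467, minus strand): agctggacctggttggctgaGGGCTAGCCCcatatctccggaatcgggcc
Mdm2 (chr10:117710915-117710964, minus strand): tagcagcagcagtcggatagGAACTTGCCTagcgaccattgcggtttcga
Ccng1 (chr11:40755442-40755491, minus strand): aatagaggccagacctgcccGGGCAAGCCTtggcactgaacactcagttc
The matches begin at positions -73 and -51 for Cdkn1a, -40 for Gadd45a, -186 for Mdm2 and -185 for Ccng1, counted from the RefSeq start of the window that holds them. For Cdkn1a this window, 29090729 to 29091028, lies at the upstream end of the annotated gene, which begins at 29090976. Distances to any other start were not examined. A match to the p53 decamer was present in 8.36% of all 32851 windows, so it is a description of these letters and not of binding.

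The members with the largest rise and the largest fall at week 4, Eda2r and Gadd45b, have no p53 decamer in these windows. Their 250 bases before the start are shown with CCAAT in capitals (searched on both strands), a motif read by NF-Y and other factors and present in 37.4% of all windows. None of the members' windows held the NF-kB consensus, which was present in 8.46% of all windows. No CCAAT overlapped a p53 decamer.
Eda2r (chrX:97377210-97377459, minus strand): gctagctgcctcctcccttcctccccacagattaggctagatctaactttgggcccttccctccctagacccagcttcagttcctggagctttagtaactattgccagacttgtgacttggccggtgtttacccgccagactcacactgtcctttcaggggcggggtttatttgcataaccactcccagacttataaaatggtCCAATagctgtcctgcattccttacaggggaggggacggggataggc
Gadd45b (chr10:80929841-80930090, plus strand): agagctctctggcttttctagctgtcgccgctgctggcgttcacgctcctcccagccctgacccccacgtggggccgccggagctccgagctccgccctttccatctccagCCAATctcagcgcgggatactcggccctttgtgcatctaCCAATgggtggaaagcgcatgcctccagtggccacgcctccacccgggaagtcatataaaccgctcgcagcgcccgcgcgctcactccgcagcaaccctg
CCAAT begins at position -47 in Eda2r, and at -139 and -100 in Gadd45b.

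Per length of transcript, the members differed widely in level. Ccng1 was the most abundant, with a median over all 38 libraries of 282 CPM per kilobase of exon, followed by Phlda3 at 90.5 and Gadd45g at 21.7 CPM per kilobase. Mdm2 (12.8), Gadd45b (11.4), Eda2r (9.74) and Gadd45a (8.98 CPM per kilobase) formed a middle group. Cdkn1a stood at 4.79, Trp53inp1 at 3.46 and Zmat3 at 0.997 CPM per kilobase. The lowest member count in any library was 93 reads, for Gadd45b in week 4.

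**Figure D1:**
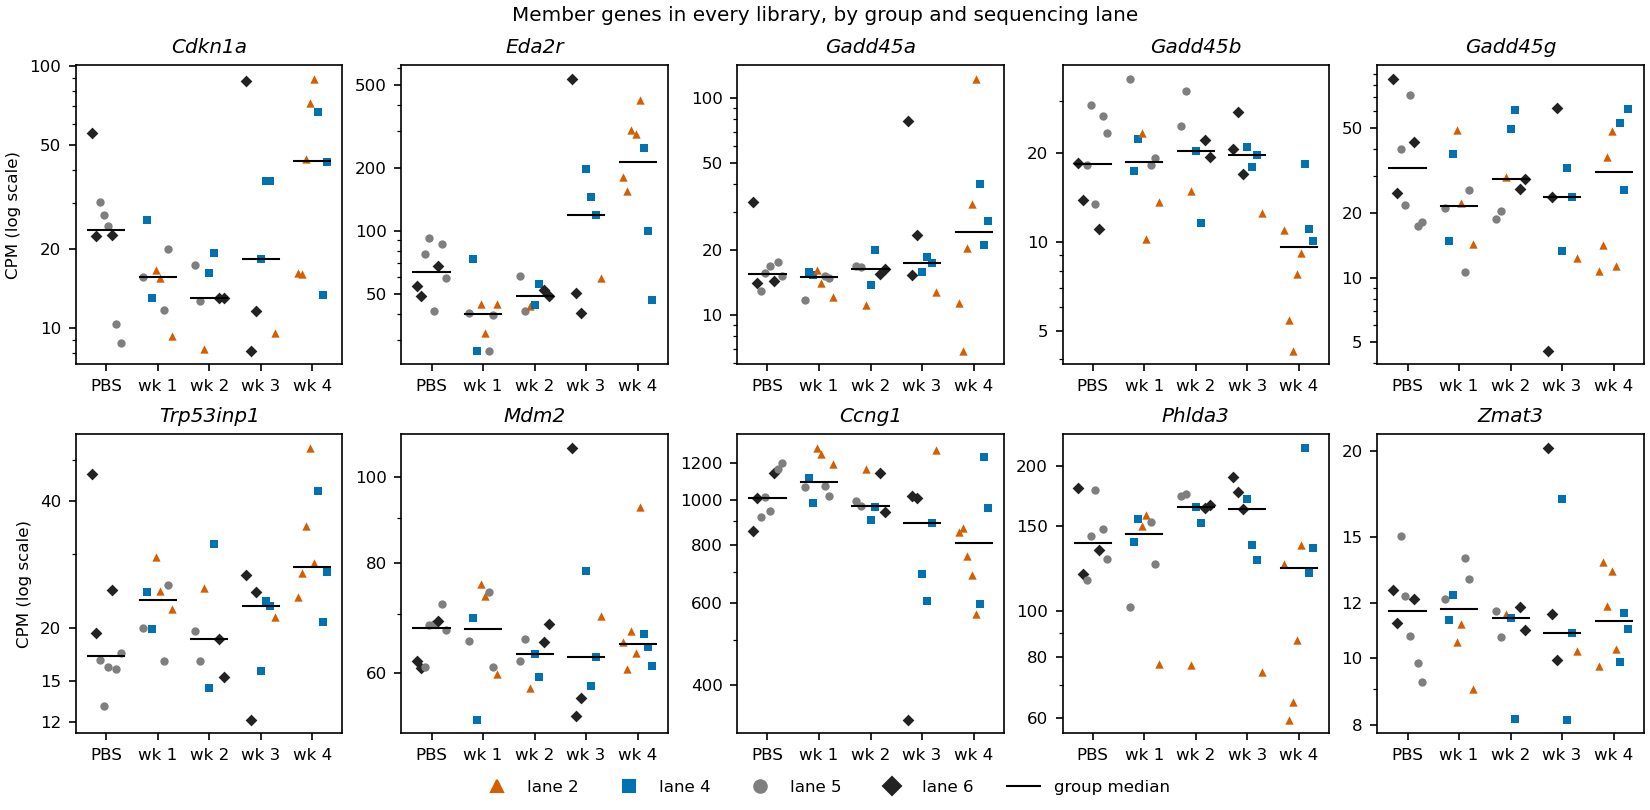
Level of each of the 10 genes in every library, in CPM on a log axis, by group, with the sequencing lane as colour and shape and the group median as a line. At week 4, Eda2r lay at 46.8 to 423 CPM against 41.3 to 91.8 CPM in PBS, and Gadd45b at 4.28 to 18.3 CPM against 11.0 to 29.1 CPM, while Mdm2 and Zmat3 kept to one range apart from single libraries.

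Against PBS, the members moved late and not as a block. At week 4, Eda2r, Gadd45a and Trp53inp1 were higher and Gadd45b was lower, and the other 6 members did not pass the test. The 4 called members of 10 stand against 29.4% of all genes called in that comparison (15.3% higher and 14.1% lower; edgeR quasi-likelihood test, adjusted p under 0.05 over 14689 genes), so the share is near the background. In a bulk sample, fewer cells of a type and less RNA per cell cannot be told apart. The median log2 fold change of the 10 members was 0.00439, beside -0.02 over all genes tested. At week 1 (0.0613% of all genes called, 0.0477% higher and 0.0136% lower), week 2 (0%) and week 3 (0.347%, of which 0.34% higher and 0.00681% lower), 0 members were called. By unadjusted p under 0.05 there were 1274, 1143 and 1579 genes of 14689 at weeks 1, 2 and 3.

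**Figure D2:**
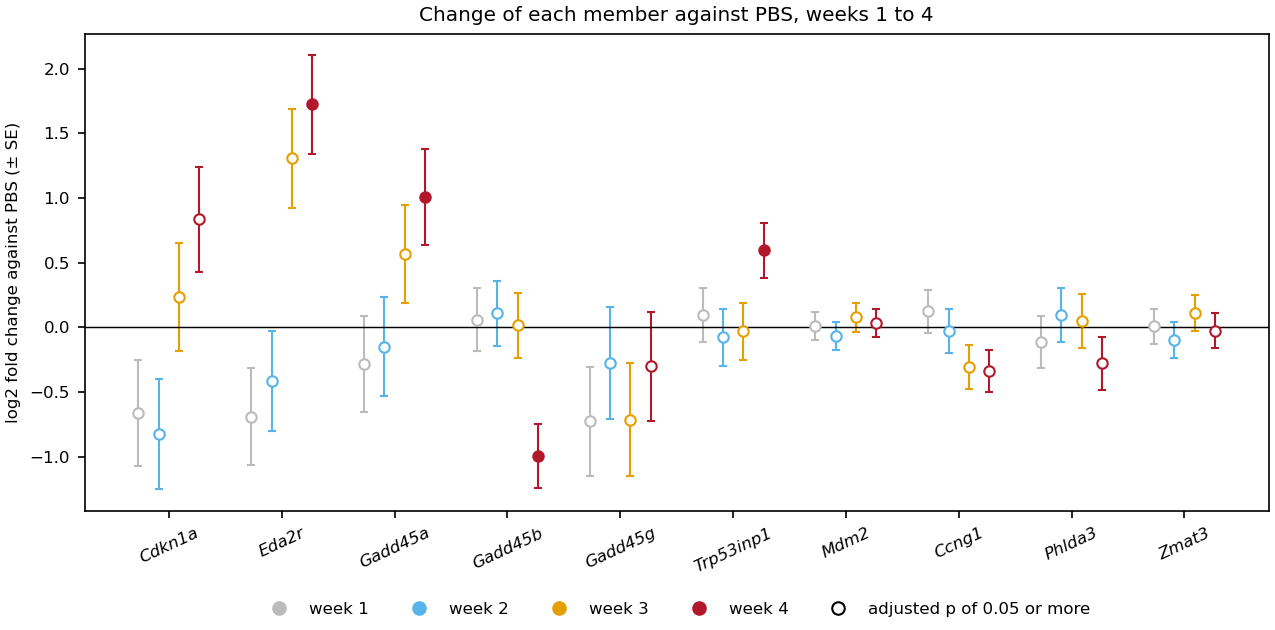
Log2 fold change of each gene against PBS at weeks 1 to 4 (edgeR, points, with the standard error as bars); filled points passed an adjusted p of 0.05. Only week 4 has filled points, for Eda2r at 1.72, Gadd45a at 1.01, Trp53inp1 at 0.60 and Gadd45b at -0.99.

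Eda2r encodes a receptor of the TNF receptor family for ectodysplasin A2, and is known as a p53 target that signals to NF-kB. Its gene (ENSMUSG00000034457) lies on the minus strand of chromosome X, 97333840 to 97377216 of GRCm38. In PBS its lowest, median and highest levels were 41.3, 63.6 and 91.8 CPM. They were 26.6, 39.9 and 73.0 CPM at week 1, and 41.5, 48.5 and 60.7 CPM at week 2. Both early groups lay within or below the PBS range, and 5 of the 8 week 1 libraries were below every PBS library. At week 3 the levels were 40.2, 119 and 532 CPM, and at week 4 they were 46.8, 214 and 423 CPM. At week 3, 4 of 7 libraries lay above all of PBS, and at week 4, 7 of 8 did. The week 4 mean was 218 ± 122 CPM against 66.0 ± 18.1 CPM in PBS (SD, n = 8 each), a log2 fold change of 1.72 ± 0.38 (SE, adjusted p = 0.00157).

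The week 3 difference of Eda2r was 1.31 ± 0.38 (log2, adjusted p = 0.152). It rested in part on week 3 replicate 1, the library low in muscle markers, and was 0.63 (adjusted p = 0.813) without it. Without week 3 replicate 4 it was 1.48 and passed (adjusted p = 0.048). Against week 1 the week 4 rise of Eda2r was 2.41 ± 0.39 (adjusted p = 5.0e-05), and against week 2 it was 2.14 ± 0.40 (adjusted p = 6.2e-04). Against week 3 it was 0.42 ± 0.38 (adjusted p = 0.512), and 1.10 (adjusted p = 0.043) without week 3 replicate 1. Leaving out any 1 library kept the week 4 call against PBS, in 16 of 16 fits. With a term for lane 2 it was 1.62 (adjusted p = 0.031). With a term for each lane it was 1.77 and the call ended (adjusted p = 0.118). Without the lane 2 libraries, which leaves 3 of week 4, the value was 0.99 (adjusted p = 0.432).

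Cdkn1a, whose product p21 halts the cell cycle by inhibiting cyclin-dependent kinases, lies on the plus strand of chromosome 17, 29090976 to 29100727 (ENSMUSG00000023067). Its lowest, median and highest levels in PBS were 8.73, 23.6 and 55.2 CPM. They were 9.36, 15.6 and 25.8 CPM at week 1, and 8.31, 13.0 and 19.3 CPM at week 2. Of the 15 libraries of these weeks, 14 lay below the PBS median. Week 3 held 8.18, 18.4 and 87.4 CPM, and week 4 held 13.4, 43.5 and 89.1 CPM. At week 4, 3 of 8 libraries lay above all of PBS and 3 of 8 lay below the PBS median, so the groups overlapped and week 4 was split. Against PBS the week 4 difference was 0.83 ± 0.40 (log2, adjusted p = 0.113) and did not pass. The highest PBS value of Cdkn1a was that of replicate 1, and without that library the rise was 1.11 and passed (adjusted p = 0.038). Against week 1 the rise was 1.49 ± 0.41 (adjusted p = 0.00974), and against week 2 it was 1.66 ± 0.44 (adjusted p = 0.00729). Both calls held with each library left out in turn, and both ended without the lane 2 libraries, at 1.24 (adjusted p = 0.368) and 1.41 (adjusted p = 0.331).

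Gadd45a binds and activates the stress kinase MAP3K4 and interacts with proteins of the replication machinery. It lies on the minus strand of chromosome 6, 67035096 to 67037457 (ENSMUSG00000036390), and 337 bases (19.1%) of its exons overlap the antisense gene E230016M11Rik. Whether reads were counted by strand is not stated, but the antisense gene had at most 34 reads in any library. The lowest, median and highest levels of Gadd45a were 12.9, 15.4 and 33.1 CPM in PBS. They were 11.8, 14.9 and 16.1 CPM at week 1, and 11.2, 16.4 and 20.05 CPM at week 2. Up to week 2 the gene kept to a narrow range in all libraries but PBS replicate 1. At week 3 the levels were 12.8, 17.3 and 78.0 CPM, and at week 4 they were 6.85, 24.1 and 122 CPM. The highest and the lowest Gadd45a value of all 38 libraries were both in week 4, at replicates 5 and 2. The mean at week 4 was 35.3 ± 36.8 CPM against 17.4 ± 6.48 CPM (SD, n = 8 each), a log2 fold change of 1.01 ± 0.37 (adjusted p = 0.0367). Of 16 fits with 1 library omitted, 7 kept this call. It was lost without any single PBS library other than replicate 1 and without week 4 replicates 5 or 6, and the value was 0.39 (adjusted p = 0.366) without replicate 5. With limma voom, which weights libraries by quality, Gadd45a was 0.20 (adjusted p = 0.575), and with a term for lane 2 it was 1.08 (adjusted p = 0.119). Gadd45a was also higher than at week 1 (1.29 ± 0.37, adjusted p = 0.0130) and week 2 (1.16 ± 0.39, adjusted p = 0.0289). These calls too were lost without week 4 replicate 5, at 0.66 (adjusted p = 0.138) and 0.52 (adjusted p = 0.252), and the second also without week 2 replicate 4, at 1.12 (adjusted p = 0.0529).

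Gadd45b, known as an NF-kB and TGF-beta responsive member of the family, moved the other way. It lies on the plus strand of chromosome 10, 80930073 to 80932204 (ENSMUSG00000015312). Its lowest, median and highest levels were 11.0, 18.3 and 29.1 CPM in PBS and 10.2, 18.7 and 35.6 CPM at week 1. They were 11.6, 20.4 and 32.5 CPM at week 2, and 12.5, 19.7 and 27.5 CPM at week 3. These 4 groups shared one range. At week 4 the levels were 4.28, 9.61 and 18.3 CPM, and 6 of 8 libraries lay below every PBS library. The fall against PBS was -0.99 ± 0.25 (log2, adjusted p = 0.00368), from 19.3 ± 6.55 to 9.64 ± 4.31 CPM (SD, n = 8 each). The fall was -1.05 ± 0.25 against week 1 (adjusted p = 0.00299), -1.10 ± 0.25 against week 2 (adjusted p = 0.00327) and -1.01 ± 0.25 against week 3 (adjusted p = 0.0249). Gadd45b was the only member called between weeks 4 and 3, where 3.51% of all genes were called (2.27% higher, 1.24% lower), and this call was lost without week 3 replicate 3 (-0.91, adjusted p = 0.0715) or without week 4 replicates 3 (-0.90), 4 (-0.97) or 5 (-1.01). Against PBS it was called in 16 of 16 fits that each omit 1 library. With a term for lane 2 it was -0.64 (adjusted p = 0.0961), with a term for each lane -0.37 (adjusted p = 0.478), and without the lane 2 libraries -0.54 (adjusted p = 0.482). Each of these settings ended the call.

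Gadd45g, the other member of the family, was not called in any comparison. Its gene (ENSMUSG00000021453) lies on the plus strand of chromosome 13, 51846678 to 51848468. Levels ran from 17.6 to 85.2 CPM in PBS, with a median of 32.6, and from 10.8 to 61.7 CPM at week 4, with a median of 31.2. The groups overlapped throughout, and the week 4 difference was -0.30 ± 0.42 (adjusted p = 0.617). Week 3 replicate 1 held the lowest Gadd45g value of all libraries, 4.56 CPM, beside the highest Eda2r value.

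Trp53inp1 encodes a nuclear protein that promotes p53 activity and takes part in autophagy. It lies on the plus strand of chromosome 4, 11156431 to 11174379 (ENSMUSG00000028211). The lowest, median and highest levels were 13.1, 17.2 and 46.4 CPM in PBS, 16.8, 23.3 and 29.5 CPM at week 1 and 14.5, 18.9 and 31.7 CPM at week 2. They were 12.2, 22.6 and 26.7 CPM at week 3, and 20.7, 27.9 and 53.4 CPM at week 4. All 8 week 4 libraries lay above the PBS median, and 1 lay above the highest PBS library. That PBS library is replicate 1, and the next highest in PBS was at 24.7 CPM. The week 4 rise was 0.60 ± 0.21 (log2, adjusted p = 0.0315), and 0.86 (adjusted p = 0.00112) without PBS replicate 1. The call was lost in 9 of 16 fits with 1 library left out: without each PBS library but replicates 1 and 6, and without week 4 replicates 3, 4 or 6. With a term for lane 2 it was 0.46 (adjusted p = 0.215). Trp53inp1 was also higher than at week 2 (0.67 ± 0.22, adjusted p = 0.0261), which was lost without week 2 replicates 2, 4 or 7 or week 4 replicate 4. It was not called against week 1 (0.50 ± 0.21, adjusted p = 0.0824) or week 3 (0.62 ± 0.22, adjusted p = 0.0874). Without week 4 replicate 7 both passed, at 0.57 (adjusted p = 0.0413) and 0.70 (adjusted p = 0.0367).

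Mdm2 encodes the ubiquitin ligase that degrades p53 and is itself a p53 target. Its gene (ENSMUSG00000020184) lies on the minus strand of chromosome 10, 117688875 to 117710758. Levels were 60.8 to 71.8 CPM in PBS with a median of 67.6, and 60.7 to 92.5 CPM at week 4 with a median of 64.7. Apart from week 4 replicate 5, at 92.5 CPM, the week 4 libraries lay between 60.7 and 67.0 CPM. The difference was 0.03 ± 0.11 (log2, adjusted p = 0.831), the smallest standard error among the members. A change of Mdm2 was not detected, and its direction turned to -0.00305 with a term for lane 2.

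Ccng1 encodes cyclin G1, a p53 target that acts with a phosphatase on Mdm2. It lies on the minus strand of chromosome 11, 40748552 to 40755311 (ENSMUSG00000020326). Its lowest, median and highest levels were 857, 1011 and 1202 CPM in PBS and 987, 1093 and 1295 CPM at week 1. At week 3 they were 336, 893 and 1283 CPM, and at week 4 they were 569, 806 and 1239 CPM. At week 4, 5 of 8 libraries lay below every PBS library and 1 lay above. The fall against PBS, -0.34 ± 0.16, did not pass (adjusted p = 0.116), and it passed at -0.45 (adjusted p = 0.0293) without week 4 replicate 7. Ccng1 was called lower against week 1, at -0.46 ± 0.16 (adjusted p = 0.0394), in 7 of 16 fits with 1 library left out. The 9 other fits reached an adjusted p of at most 0.094.

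Phlda3, an inhibitor of the kinase Akt that p53 induces, and Zmat3, an RNA-binding zinc finger protein that p53 induces, completed the set. Phlda3 (ENSMUSG00000041801, chromosome 1, 135766119 to 135769136, plus strand) lay at 116 to 180 CPM in PBS and 59.4 to 219 CPM at week 4. Its week 4 range held the lowest and the highest Phlda3 value of all libraries, and the difference of -0.28 ± 0.20 did not pass (adjusted p = 0.309). With limma voom Phlda3 was called lower, at -0.57 (adjusted p = 0.0104). Zmat3 (ENSMUSG00000027663, chromosome 3, 32334792 to 32366014, minus strand) lay at 9.23 to 15.03 CPM in PBS and 9.72 to 13.8 CPM at week 4. The groups of Zmat3 overlapped almost completely, with a difference of -0.03 ± 0.13 (adjusted p = 0.905). The sign of the Phlda3 difference turned with a term for lane 2 (0.053), as did that of Zmat3 (0.032).

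Over all 5 groups, an F test called Eda2r (adjusted p = 1.2e-05), Gadd45b (adjusted p = 0.00762), Cdkn1a (adjusted p = 0.0150) and Gadd45a (adjusted p = 0.0295), 4 of 10 members against 21.9% of all genes. Without week 4 replicate 5, the calls of Cdkn1a (adjusted p = 0.0559) and Gadd45a (adjusted p = 0.142) ended. Week 4 against week 1 called 5 members (Eda2r, Cdkn1a and Gadd45a higher, Gadd45b and Ccng1 lower) against 22.6% of all genes (12.9% higher, 9.7% lower). Week 4 against week 2 called 5 (Eda2r, Cdkn1a, Gadd45a and Trp53inp1 higher, Gadd45b lower) against 23.6% (13.5% higher, 10.1% lower). These comparisons share their week 4 libraries.

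Within lanes 2 and 4, week 4 was set against weeks 1 to 3 with a term for lane. In this comparison Eda2r (1.67 ± 0.34, adjusted p = 0.00727) and Cdkn1a (1.46 ± 0.37, adjusted p = 0.0233) were higher and Gadd45b (-0.74 ± 0.19, adjusted p = 0.0267) was lower. These are 3 of 10 members, against 8.65% of 15033 genes called (5.39% higher, 3.26% lower). Gadd45a was at 1.20 ± 0.39 (adjusted p = 0.0573), Trp53inp1 at 0.45 ± 0.17 (adjusted p = 0.0937) and Ccng1 at -0.33 ± 0.15 (adjusted p = 0.161). The Eda2r call was kept in all 20 fits that omit 1 library. The Cdkn1a call was lost without week 2 replicate 3 (adjusted p = 0.0703), week 3 replicate 8 (adjusted p = 0.0642) or week 4 replicate 6 (adjusted p = 0.0837). The Gadd45b call was lost without week 2 replicate 3 (adjusted p = 0.0815) or week 3 replicate 8 (adjusted p = 0.0586). Without week 4 replicate 7, 15.7% of all genes were called, and 6 members: the 3 named and Gadd45a (1.33, adjusted p = 0.0347), Trp53inp1 (0.54, adjusted p = 0.0395) and Ccng1 (-0.49, adjusted p = 0.0207).

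In lane 2, the 5 week 4 libraries, replicates 1 to 5, had 180, 155, 303, 288 and 423 CPM of Eda2r. The earlier libraries of that lane had 44.5, 32.4 and 44.4 CPM (week 1), 43.4 CPM (week 2) and 59.1 CPM (week 3). Every week 4 library of lane 2 was above every earlier one. How many of all genes separate in this way in either lane was not counted. For Cdkn1a the same week 4 libraries had 16.1, 16.03, 43.9, 72.2 and 89.1 CPM, against 8.31 to 16.7 CPM in the 5 earlier ones. Replicates 1 and 2 of week 4 thus lay within the early range of Cdkn1a and above the early range of Eda2r. For Gadd45b the week 4 values were 11.0, 5.42, 4.28, 7.78 and 9.16 CPM, against 10.2 to 23.3 CPM before, and 4 of 5 lay below all earlier ones. For Gadd45a they were 11.4, 6.85, 20.4, 32.7 and 122 CPM, against 11.2 to 16.1 CPM before, so week 4 lay on both sides.

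In lane 4, the 3 week 4 libraries, replicates 6 to 8, had 247, 99.3 and 46.8 CPM of Eda2r, and the 7 earlier ones ran from 26.6 to 196 CPM. The 3 highest earlier values, 119 to 196 CPM, were all of week 3. For Cdkn1a the week 4 libraries of lane 4 had 66.3, 13.4 and 43.0 CPM against 13.0 to 36.3 CPM, and week 4 replicate 7 lay within the early range. For Gadd45a they had 40.3, 21.0 and 27.2 CPM against 13.7 to 20.05 CPM, and all 3 lay above the 7 earlier ones. The share of all genes with such a separation in lane 4 was not counted. For Gadd45b they had 18.3, 11.1 and 10.1 CPM against 11.6 to 22.3 CPM, and 2 of 3 lay below all earlier ones. In lane 4 alone 0 of 10 members were called, and 0% of all genes, while lane 2 alone called Eda2r (2.60, adjusted p = 7.5e-05), Cdkn1a (2.00, adjusted p = 0.0118), Gadd45b (-0.98, adjusted p = 0.0249) and Ccng1 (-0.72, adjusted p = 0.00376), 4 of 10 members against 18.9% of all genes. Lane 2 held 5 week 4 and 5 earlier libraries and lane 4 held 3 and 7. In these single-lane fits weeks 1 to 3 were merged into 1 group, unlike in the fit of both lanes. The merged group held 3, 1 and 1 libraries of weeks 1, 2 and 3 in lane 2, and 2, 2 and 3 in lane 4. The lanes thus differed in their mix of early weeks as well as in number. The difference between the results of the 2 lanes was not tested.

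**Figure D3:**
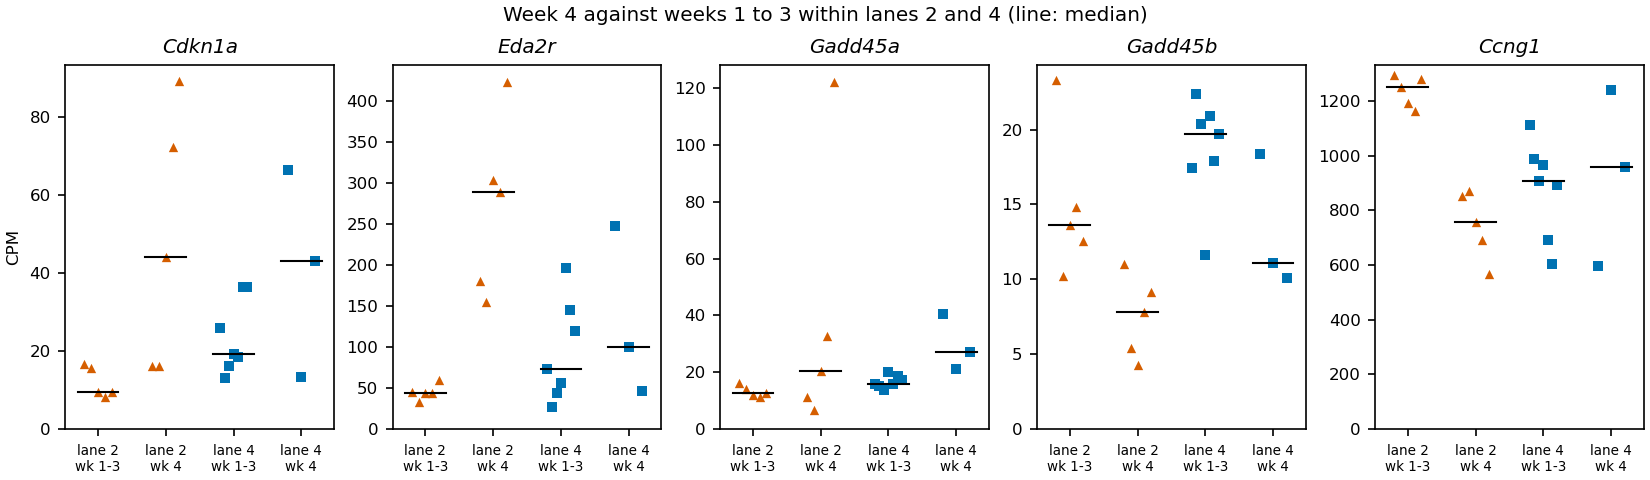
Levels in CPM of 5 genes in the libraries of lanes 2 and 4, split into weeks 1 to 3 and week 4, with the median as a line. In lane 2, all 5 week 4 libraries lie above the earlier ones for Eda2r and below them for Ccng1, and in lane 4 the 3 week 4 libraries lie above the earlier ones for Gadd45a. The share of all genes that separate in this way was not counted.

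Ccng1 was the member in which lanes differed most plainly. In lane 2 the week 4 libraries had 854, 871, 757, 691 and 569 CPM and the earlier ones 1165 to 1295 CPM, with no overlap. How common this is among all genes was not counted. In lane 4 the week 4 values were 597, 1239 and 959 CPM against 605 to 1113 CPM, with 1 library below, 1 within and 1 above the earlier range. Among weeks 1 to 3 the 5 lane 2 libraries lay above all 17 libraries of the other lanes, which ran from 336 to 1143 CPM of Ccng1. Phlda3 had a median of 77.5 CPM in those 5 libraries and 163 CPM in the other 17, Cdkn1a 9.59 and 16.2 CPM, and Gadd45b 13.6 and 20.4 CPM. Mdm2 (69.7 and 63.1 CPM) and Trp53inp1 (24.5 and 19.9 CPM) had the higher median in lane 2. The ranges of each of these genes overlapped, and Phlda3 was at 150 and 158 CPM in week 1 replicates 4 and 5 of lane 2. The 5 lane 2 libraries were 3 of week 1 and 1 each of weeks 2 and 3, a mix unlike that of the other 17. Lane and week were thus mixed in these medians. With a term for lane, the edgeR fit within lanes 2 and 4 gave Ccng1 at -0.33 ± 0.15 (adjusted p = 0.161). Against PBS, the week 4 value of Ccng1 ran from -0.45 to -0.15 over the alternative settings, lane terms included, and passed in 1. How much of the week 4 result of Ccng1 went with lane was not tested.

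Within lanes 5 and 6, weeks 1 to 3 were set against PBS, and 0 of 10 members were called, as were 0% of 14691 genes (846 at an unadjusted p under 0.05; edgeR). The largest differences of members were -0.79 ± 0.39 for Gadd45g (adjusted p = 0.847) and 0.39 ± 0.17 for Gadd45b (adjusted p = 0.847).

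Some libraries were high in several members. Week 3 replicate 1 was the highest of its group in 7 of the 10 members, with Cdkn1a at 87.4 CPM (8.18 to 36.3 in the other 6), Gadd45a at 78.0 CPM (12.8 to 23.4) and Eda2r at 532 CPM (40.2 to 196). The same library had 108 CPM of Mdm2 (53.6 to 78.4 in the others) and 20.2 CPM of Zmat3 (8.13 to 17.0). It was the lowest of week 3 in Ccng1, at 336 CPM against 605 to 1283, and in Gadd45g. Week 4 replicate 5 was the highest of its group in Cdkn1a, Gadd45a, Mdm2 and Eda2r, and the lowest in Ccng1. Other libraries were split between members. Week 4 replicate 8 was the lowest of its group in Eda2r, at 46.8 CPM, with Cdkn1a at 43.0 and Gadd45a at 27.2 CPM. Week 4 replicate 2 was the lowest in Gadd45a, at 6.85 CPM, with Eda2r at 155 CPM. Week 3 replicate 4 was the lowest of week 3 in Eda2r, at 40.2 CPM, and second in Gadd45a, at 23.4 CPM.

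PBS replicate 1, high in macrophage and proliferation markers, was the highest PBS library in Cdkn1a, Gadd45a, Gadd45g, Trp53inp1 and Phlda3 and the lowest in Ccng1. Its muscle marker sum, 105100 CPM, was the lowest of PBS (119050 to 149280 in the other 7). PBS replicate 1, week 3 replicate 1 and week 4 replicate 5 thus each had the lowest muscle marker sum of their group, and the part of that in the results was not tested. Its Eda2r level, 54.6 CPM, lay inside the range of the other 7 (41.3 to 91.8). Without it, 5 of 10 members were called at week 4 (Cdkn1a added to the 4), against 30.5% of all genes.

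**Figure D4:**
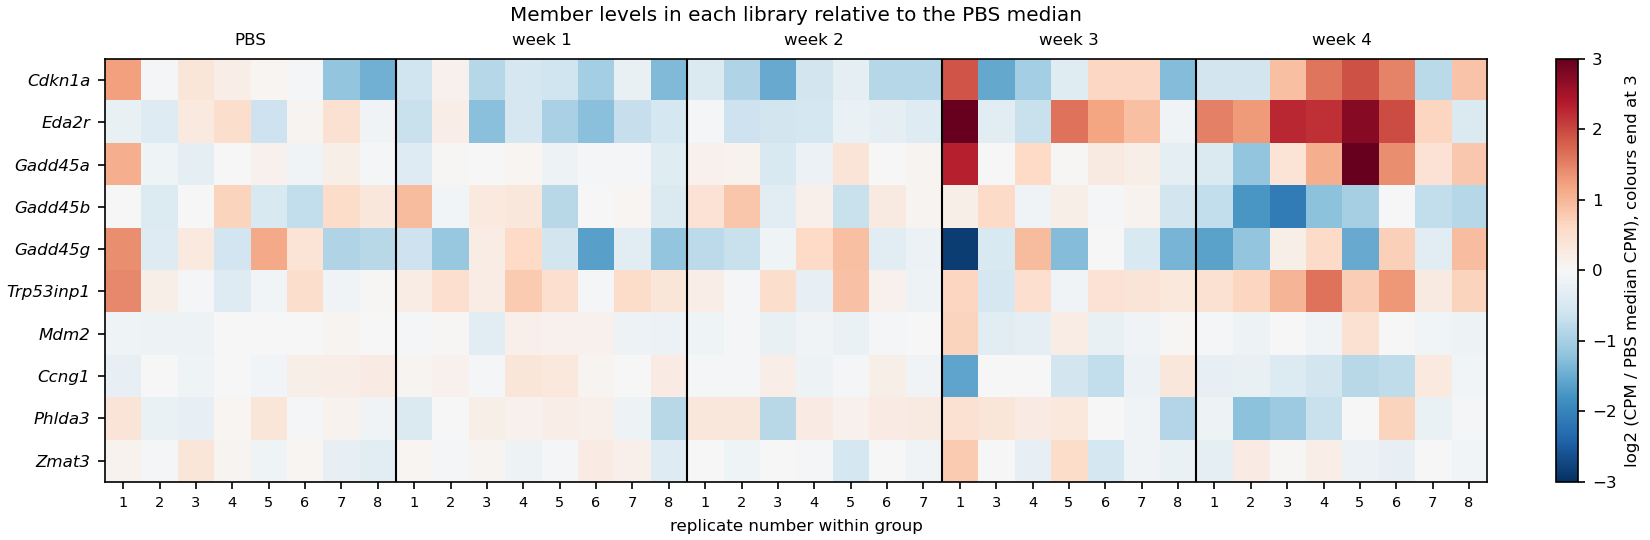
Log2 ratio of each gene's CPM in each library to its PBS median, with libraries by group and replicate number (colours end at 3 in either direction). Week 3 replicate 1 and week 4 replicate 5 are red in Cdkn1a, Eda2r and Gadd45a and blue in Ccng1, while Gadd45b is blue or near 0 in all 8 week 4 libraries.

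Markers of other cell types also moved at week 4. Neutrophil markers summed to 60.7 to 304 CPM at week 4 against 2.20 to 16.4 CPM in PBS, with 9 of 9 tested markers called higher. Endothelial markers summed to 278 to 468 CPM against 236 to 327 CPM, with 3 of 6 called higher. Macrophage markers summed to 158 to 295 CPM against 97.4 to 231 CPM in PBS without replicate 1, which had 1171 CPM. With that library included, 1 of 12 macrophage markers was called higher and 1 lower. Calls of these markers without it are not given here. Erythroid markers summed to 730 to 3409 CPM against 231 to 1271 CPM, with 4 of 7 called higher. Adipocyte markers had a median sum of 28.5 CPM against 65.1 CPM, with 0 of 4 called. Fibro-adipogenic markers summed to 394 to 830 CPM against 455 to 824 CPM, with 1 of 5 called lower. Proliferation markers summed to 1.83 to 5.33 CPM against 1.17 to 3.36 CPM in PBS without replicate 1, which had 46.5 CPM. Their median sum was 2.98 CPM at week 4 and 1.55 CPM in all of PBS. With that library included, 1 of 3 tested proliferation markers was called lower. Of the lymphocyte markers, 0 of 8 had enough reads to be tested. Satellite cell markers summed to 23.6 to 38.4 CPM against 28.2 to 32.4 CPM, with 0 of 5 called, and 3 of 8 muscle markers were called lower. No marker of these 10 lists was at 0 throughout either group. Their part in the change of Eda2r, Cdkn1a and the Gadd45 genes was not tested.

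Other genes of the pathway were read from lists of known roles. Of 26 tested further p53 targets, 5 were higher and 3 lower at week 4 against PBS, with a median of 0.05 (log2). This is near the background of 15.3% of all genes higher and 14.1% lower. The smallest p belonged to Tnfrsf10b, the mouse death receptor for TRAIL (1.06 ± 0.23, adjusted p = 0.00151), and Dcxr, a sugar reductase (-1.10 ± 0.25, adjusted p = 0.00194). Next came Btg2, an antiproliferative factor (1.08 ± 0.31, adjusted p = 0.00932), and Sesn1, a sestrin that restrains mTORC1 (0.62 ± 0.19, adjusted p = 0.0150). Tnfrsf10b rose from a median of 0.884 CPM in PBS to 1.88 CPM, and Dcxr fell from 5.15 to 2.34 CPM. With a term for lane 2, Sesn1 alone of this list was called (0.70, adjusted p = 0.0493), and within lanes 2 and 4, 0 of 27 tested were called, against 8.65% of all genes.

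Of 17 tested p53 family members, regulators and damage kinases, 7 were higher and 1 lower at week 4, against 15.3% and 14.1% of all genes, with a median of 0.37. Trp53, the gene of p53 itself, was among the higher ones, at 0.41 ± 0.16 (adjusted p = 0.0469). Its levels were 10.5 to 16.2 CPM in PBS and 12.5 to 27.2 CPM at week 4, and the groups overlapped. The call of Trp53 was lost without PBS replicate 1 (0.39, adjusted p = 0.0717), with a term for lane 2 (0.34, adjusted p = 0.249) and without the lane 2 libraries (0.13, adjusted p = 0.888). Within lanes 2 and 4, Trp53 was higher at 0.42 ± 0.12 (adjusted p = 0.0354), as was Trp63, its relative in the family, at 0.66 ± 0.17 (adjusted p = 0.0222). Chek2, a kinase that phosphorylates p53 after DNA breaks, was lower at -1.501 ± 0.21 (adjusted p = 5.4e-06), from a median of 2.93 CPM in PBS to 1.04 CPM. No week 4 library of Chek2 (at most 1.36 CPM) reached the lowest PBS library (2.03 CPM), a separation whose share over all genes was not counted. Its fall was -1.34 with a term for lane 2 (adjusted p = 2.7e-04), -1.29 without the lane 2 libraries (adjusted p = 0.0142) and -0.85 ± 0.19 within lanes 2 and 4 (adjusted p = 0.0110). The acetyltransferases Crebbp (0.69 ± 0.12, adjusted p = 1.7e-04), Ep300 (0.57 ± 0.16, adjusted p = 0.00735) and Kat5 (0.43 ± 0.12, adjusted p = 0.00865) were higher, and of these Crebbp alone stayed called with a term for lane 2.

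Of 16 other CDK inhibitors, cyclins and CDKs of G1, 1 was higher and 2 lower at week 4, against 29.4% of all genes called in either direction, with a median of -0.27. The inhibitors Cdkn2c (-0.53 ± 0.12, adjusted p = 0.00223) and Cdkn1c (-0.63 ± 0.18, adjusted p = 0.0109) were lower, while Rb1, the retinoblastoma protein, was higher (0.50 ± 0.16, adjusted p = 0.0190). Cdkn1c was also lower within lanes 2 and 4 (-0.64 ± 0.17, adjusted p = 0.0294), where Cdkn1a was higher. Of 14 Gadd45 partners and inducers, 5 were higher and 1 lower, against the same 29.4%, with a median of 0.19. They include the transcription factor Foxo3 (0.75 ± 0.15, adjusted p = 6.4e-04) and the NF-kB subunits Rela (0.65 ± 0.15, adjusted p = 0.00183) and Nfkb1 (0.38 ± 0.10, adjusted p = 0.00468). Ddit3, a transcription factor of the integrated stress response, was lower (-0.59 ± 0.16, adjusted p = 0.00539). Within lanes 2 and 4, Rela (0.43 ± 0.13, adjusted p = 0.0480) and Myog, the myogenin gene (0.85 ± 0.19, adjusted p = 0.0120), were higher.

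Of 11 tested genes of Eda2r signalling, 1 was higher at week 4 against PBS, where 29.4% of all genes were called: the NF-kB-inducing kinase Map3k14 (0.62 ± 0.22, adjusted p = 0.0281). Within lanes 2 and 4, the NF-kB subunit gene Relb (0.74 ± 0.22, adjusted p = 0.0426), the adaptor Traf1 (0.91 ± 0.24, adjusted p = 0.0270) and the inhibitor of apoptosis Birc3 (0.49 ± 0.12, adjusted p = 0.0215) were higher, 3 of 11 against 8.65% of all genes. The ligand gene Eda had a median of 2.82 CPM in PBS and 2.43 CPM at week 4. The muscle atrophy ligase genes Fbxo32 (2.00 ± 0.32, adjusted p = 5.2e-05) and Trim63 (2.05 ± 0.42, adjusted p = 8.1e-04) were both higher at week 4, and both were higher within lanes 2 and 4. With a term for lane 2, the called genes of the 6 lists were 1 p53 target, 2 of the p53 family, 0 of G1, 1 Gadd45 partner, 0 of Eda2r signalling and both ligases, against 5.64% of all genes. Without the lane 2 libraries Chek2 and Trim63 alone of these lists were called, against 0.894% of all genes. Without PBS replicate 1 the counts were 9, 6, 4, 7, 3 and 2 in the order given, against 30.5% of all genes. The lane settings and this omission were chosen after the data were seen.

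**Figure D5:**
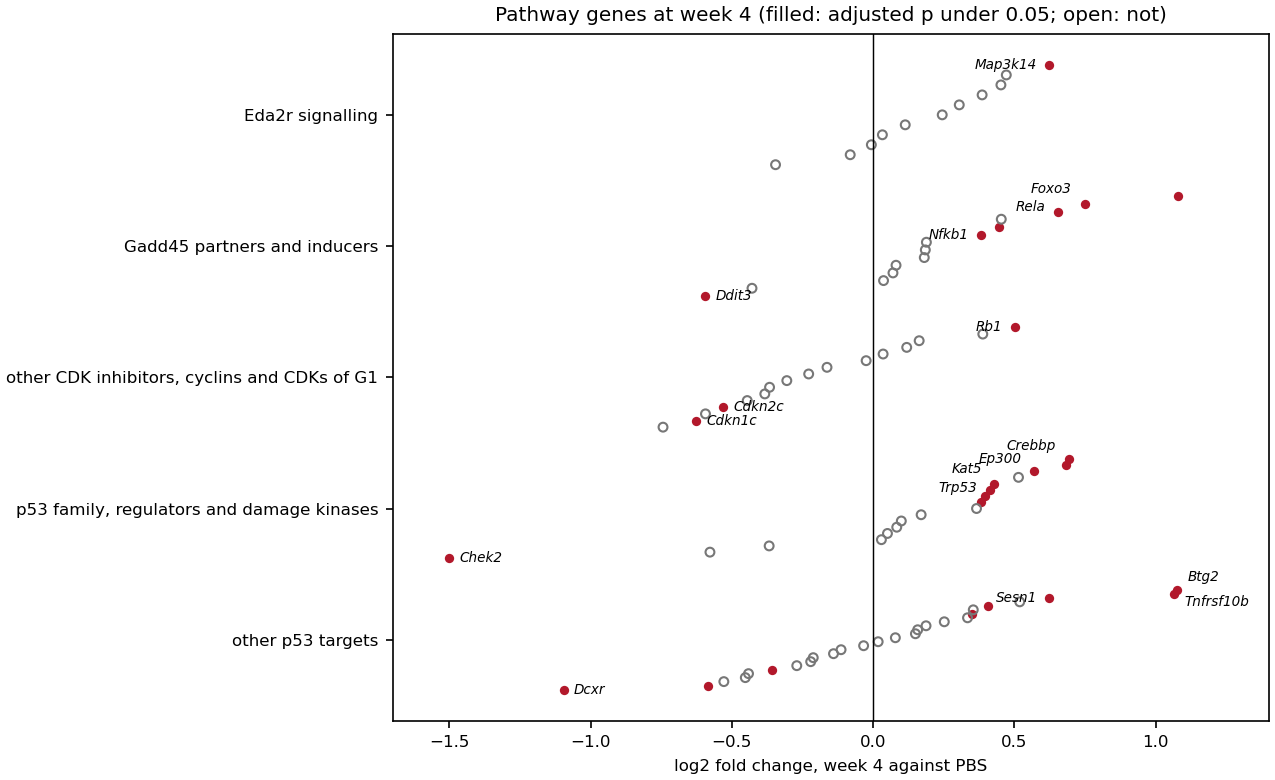
Log2 fold change of week 4 against PBS for each tested gene of 5 pathway lists (edgeR); filled points passed an adjusted p of 0.05, and named points are the called genes of smallest p in each list, with Trp53. Chek2 lies furthest to the left at -1.501, and the p53 targets spread on both sides of 0 with a median of 0.05.

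The genes whose course was most like that of Eda2r and of Cdkn1a were taken by the distance between the 4 log2 fold changes against PBS, among 9040 genes of at least 5 CPM on average. The 4 values share their PBS libraries, so this describes the shape of a course and is no test. Nearest to Eda2r were Xirp1, Fbxo32, Aacs, Egln3 and Flnc, at distances of 0.471 to 0.626. Of these, Xirp1 had -0.33, -0.35, 1.14 and 1.48 at weeks 1 to 4, beside -0.69, -0.42, 1.31 and 1.72 for Eda2r. Without PBS replicate 1, 4 of these 5 genes were again among the nearest 5. Nearest to Cdkn1a were Tmem100, Fxyd5, Ptprc, Lcp1 and Rgcc, at 0.337 to 0.428, and 2 of the 5 remained without that library. Among the other members, Gadd45a ranked 47 of 9040 in nearness to Eda2r and Cdkn1a ranked 137.

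The authors' deposited tables each list a part of the 46078 genes of the count files. The authors' deposited table for week 4 over PBS lists 4313 genes. It holds 3 of the 10 members: Eda2r at 1.44 (log2), Gadd45b at -0.86 and Trp53inp1 at 0.55. The authors' deposited table for week 4 over week 3 lists 476 genes, with Gadd45b at -0.82 and Trp53inp1 at 0.59. Over week 1 the authors' deposited table lists 3336 genes and 6 members at week 4. Of these, Eda2r was at 1.98, Cdkn1a at 1.20, Gadd45a at 0.92 and Trp53inp1 at 0.47. The other members listed there were lower, Gadd45b at -0.92 and Ccng1 at -0.44. Over week 2 it lists 3388 genes and 4 members at week 4: Eda2r at 1.78, Cdkn1a at 1.31, Trp53inp1 at 0.61 and Gadd45b at -0.98. The authors' deposited table for week 3 over week 1 lists 116 genes, with Eda2r at 0.77. The authors' deposited tables for weeks 1, 2 and 3 over PBS list 44, 100 and 22 genes and 0 of the members.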

How the data were processed

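RNA was taken from flash-frozen gastrocnemius with Trizol, and libraries were made with an Illumina TruSeq kit, per the labels' protocols. The deposited files hold raw read counts per gene. The submitters' processing notes name FastQC, HISAT2, HTSeq, DESeq2 and build GRCm38.p5. Tool versions, strand setting and annotation release are not given in the sources used here. The authors' deposited tables hold log2 fold changes and an adjusted p-value per gene, per the file headers, and were used for 1 paragraph only. Lanes were read from file names.

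For the 38 libraries, edgeR 4.0.16 (R 4.3.3) was used with TMM factors. Genes were kept by filterByExpr on the groups, at a minimum count of 10, which left 14689. Quasi-likelihood models were fitted to all 5 groups together. Calls are at a Benjamini-Hochberg adjusted p under 0.05 over all genes tested. Each standard error was obtained by dividing the log2 fold change by the square root of its F statistic. CPM levels use the TMM library sizes. Lines of unassigned reads stayed out; reads in genes were 44.5% to 80.9% of each library. No pair of libraries within a group agreed within sampling noise (chi-square per degree of freedom of at least 13.1). Gene names, lengths and coordinates (GRCm38) came from GENCODE M21, and promoter windows from RefSeq. Before use, the fits were tested on simulated data.

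The 10 genes are always named, with up to 4 called genes of smallest p from each pathway list, Trp53, and the 5 genes nearest to Cdkn1a, Gadd45a and Eda2r. The genes nearest to Gadd45a are not reported here. Genes, lists and tests were chosen with earlier results of these data known. Alternatives were RLE and upper quartile factors, no filter, a mean of at least 5 CPM, terms for lane 2 or each lane, no lane 2 libraries, only the groups compared, DESeq2 1.42.0, limma 3.58.1 voom with weights for sample quality, a test against a 1.5-fold threshold, libraries of doubtful quality left out, and each library left out in turn. The libraries of doubtful quality are called the 4 libraries of unusual read assignment below. They were week 1 replicate 7, week 2 replicate 6, and week 3 replicates 1 and 3. Their reads in genes were 69.7%, 48.7%, 61.1% and 44.5% in that order, beside a median of 70.7% over all libraries. By this measure week 1 replicate 7 was near the median. The list counts under lane settings and without PBS replicate 1 were added after the data were seen.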

Additional observations from a re-analysis of the deposited data

Results flagged for a closer look

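In 50 groups of values (10 genes in 5 groups), Dixon's criterion gave 11 flags of a single library far from the rest of its group. For independent, normally distributed values it flags about 1 in 20 groups. CPM was used without a log and the genes share their libraries, so the rate by chance here is not known. The library and the gene are named with the nearest other value of the group.

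PBS replicate 1 was high in Cdkn1a (55.2 CPM, next 30.1), Gadd45a (33.1, next 17.5) and Trp53inp1 (46.4, next 24.7). Week 3 replicate 1 was high in Cdkn1a (87.4 CPM, next 36.3), Gadd45a (78.0, next 23.4) and Eda2r (532, next 196). Week 4 replicate 5 was high in Gadd45a (122 CPM, next 40.3) and Mdm2 (92.5, next 67.0). Week 1 replicate 2 was high in Eda2r (73.0 CPM, next 44.5). Week 2 replicate 3 was low in Phlda3 (77.3 CPM, next 152), and week 2 replicate 5 was low in Zmat3 (8.15 CPM, next 10.7).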

How the results depend on the processing

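No paired analysis was possible because each sample is labelled with a different number and none is shared between groups.

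The share of all genes called stands in percent after each count of members. For week 4 against PBS (4 members, 29.4%), 1 was called with a term for lane 2 (5.64%), 0 with a term for each lane (0.633%), 0 without the lane 2 libraries (0.894%), 2 with only the groups compared (25.8%), 0 for a change of at least 1.5 times (0.831%), and 2 to 5 with 1 library left out (20.7% to 35.3%). At week 3 against PBS, 0 to 1 were called with 1 left out (0.0811% to 0.702%). For week 4 against week 1 (5, 22.6%), the counts were 0 without lane 2 (0.591%), 1 for at least 1.5 times (1.44%) and 3 to 6 with 1 left out (13.2% to 29.1%). For week 4 against week 2 (5, 23.6%), they were 3 with a lane 2 term (10.8%), 3 with a term for each lane (7.53%), 0 without lane 2 (0.388%), 1 for at least 1.5 times (0.926%) and 3 to 6 with 1 left out (14% to 30.6%). For week 4 against week 3 (1, 3.51%), they were 4 with limma voom (25.2%), 2 without PBS replicate 1 (4.68%), 0 to 2 with 1 left out (0.65% to 12.2%), and 0 with either lane term, without lane 2, with only the groups compared, for at least 1.5 times or without 4 libraries of unusual read assignment (at most 0.177%). For any difference (4, 21.9%), they were 1 with a term for each lane (4.85%), 1 without lane 2 (1.6%) and 2 to 6 with 1 left out (12.4% to 29.4%). Within lanes 2 and 4 (3, 8.65%), 0 were called in lane 4 alone (0%) and 1 to 6 with 1 left out (2.27% to 15.7%). Fewer libraries are fitted without lane 2 or in 1 lane. The cause of the differences was not tested for any setting.

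Directions turned only for uncalled values. At week 4 against PBS these were Gadd45g (0.21 without lane 2), Mdm2 (-0.00305 with a lane 2 term, -0.045 without lane 2, -0.025 with voom), Phlda3 (0.053 and 0.064 with the lane terms, 0.14 without lane 2) and Zmat3 (0.032 and 0.19 with the lane terms, 0.011 with voom). With 1 library left out, Mdm2 ran from -0.043 to 0.056 and Zmat3 from -0.068 to 0.035. Against week 3 these were Gadd45a (-0.049 with voom), Gadd45g (-0.034 with voom), Mdm2 (0.064 with voom, 0.052 without the 4 libraries), Ccng1 (0.28 without lane 2), Eda2r (-0.46 without lane 2), Phlda3 (0.011 with a term for each lane) and Zmat3 (0.081 with voom, 0.022 without the 4 libraries). With 1 library left out, Gadd45a ran from -0.19 to 1.03, Mdm2 from -0.13 to 0.095, Ccng1 from -0.17 to 0.11 and Zmat3 from -0.22 to 0.018.

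Across these settings, all genes called at week 4 against PBS numbered 93 (a term for each lane) to 6376 (voom), beside 4315.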
